A study of Drosophila melanogaster with 4 samples.

Results

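The 89 protein-coding genes of Drosophila melanogaster that encode the proteins of the cytosolic ribosome were followed across an early stretch of embryonic development. They were taken from 14001 annotated genes by symbol: a name that starts with RpL, RpLP or RpS and a number, without mitochondrial ribosomal proteins. Of 92 symbols of that form, RpLP0-like, RpL24-like and RpL7-like were left out as ribosome biogenesis factors. The 89 genes comprise 51 of the large (60S) and 38 of the small (40S) subunit, and they code for 78 proteins once paralogues, near-copies of one gene, are merged. sta and Rack1 also encode proteins of the small subunit but have other names, and were kept apart for comparison.

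The study read native RNA from whole embryos on nanopores (direct RNA sequencing). Both groups were of strain w118: 2 libraries came from embryos collected 0–1 h after egg laying and 2 from embryos collected 4–5 h after egg laying. The design text places them before and after activation of the zygotic genome. No treatment, transgene or mutation is given for either group. Embryos were lysed and the lysate was cleared by centrifugation, so RNA in the pelleted material was not sampled. Total RNA was the input, without a prior step of selection for poly(A) tails. Reads of rRNA were few, from 0.736% in 0–1 h replicate 2 to 5.33% in 4–5 h replicate 1. Whether tail length affected which mRNAs were read, and with it the comparison of the stages, was not tested. Nothing in the labels tells whether the 2 libraries of a stage are separate collections of embryos, and p-values therefore reflect the spread between the libraries at hand, which may be technical.

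A cytosolic ribosome holds 1 copy of nearly every ribosomal protein, and the acidic stalk proteins are the known case of several copies. Their genes are among the most strongly transcribed in growing cells, often carry snoRNA genes in their introns, and many have the Minute phenotype, slow growth and short bristles, when a single copy is lost. The fly egg is loaded by its mother with ribosomes and with ribosomal protein mRNA, and in the early embryo much of this mRNA is known to be translated poorly. Their translation is known, mainly from mammalian cells, to be controlled through a tract of pyrimidines at the 5′ end by the Tor pathway and a La-related protein, encoded in the fly by larp.

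The libraries held 573849 and 557433 reads assigned to transcripts at 0–1 h, and 883108 and 429525 at 4–5 h. Ribosomal protein genes took 131405 and 144046 of these reads at 0–1 h and 437268 and 210985 at 4–5 h. That is 22.9% and 25.8% of all reads at the earlier stage and 49.5% and 49.1% at the later one. The groups did not overlap. Maternal mRNAs of the marker list fell between the stages in 6 of 7 cases tested. Apart from dhd and pgc, they had enough reads to be tested only through the 0–1 h libraries, so their fall is no check of the stage labels. Of 11 zygotic mRNAs listed, 8 were tested and all of them rose. These had enough reads to be tested only through the 4–5 h libraries, so their rise is no check of the stage labels. Not tested were eve and ftz, with at most 2 reads per library, and Ubx, with 11 and 16 reads at 4–5 h. Of the 6 germ line mRNAs tested, 5 fell. Again all but pgc were tested only through their 0–1 h reads, and nanos, osk and pgc stand in both lists. The 9 follicle cell and yolk genes together had 0 reads in both libraries at 0–1 h and 3 in each at 4–5 h. Of the testis list, 2 of 9 listed genes were tested, bam and twe, both only through the 0–1 h libraries, and both fell. Mst87F, aly, can, fzo, dj and comr had 0 reads in every library.

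All 83 ribosomal protein genes with enough reads to test rose from 0–1 h to 4–5 h. Their median log2 change was 2.23, against -0.10 over all 6042 genes tested and -0.12 over the 5959 others. Across all genes tested, 28.6% were called higher and 31.5% lower at a Benjamini-Hochberg adjusted p under 0.05 in edgeR's quasi-likelihood test. Levels are CPM, a gene's reads relative to the reads of the library, on library sizes scaled with TMM, which sets the bulk of genes near no change. With plain library sizes the median over all genes was -1.29 and the median of the ribosomal protein genes 1.05, and 80 of 83 were called higher. RpLP0, RpLP2 and RpS5b then missed the threshold, with log2 changes of 0.29, 1.18 and 0.16. On the authors' TPM the median over all genes was -1.80 and that of the ribosomal protein genes 0.26, with 37 called higher and 2, RpLP0 and RpS5b, called lower. The rise is thus a rise relative to other mRNAs. In whole embryos, a change in the number of cells cannot be told apart from a change in RNA per cell.

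The genes rose to a similar degree. The log2 change lay within 0.5 of the median in 80 of 83 genes, and the 25th and 75th percentiles were 2.07 and 2.36. The 49 tested genes of the large subunit had a median of 2.17 and the 34 of the small subunit 2.26. Levels at 0–1 h and 4–5 h did not overlap in any of the 83. The count was not taken over the other genes and is a description only. RpL37-2 is in the set only through its 4–5 h reads. The smallest change was that of RpS5b, at 1.35 (SE 0.21), and the largest that of RpL37-2, at 5.45 (SE 0.74), which rested on 1 read at 0–1 h. Next to RpL37-2, the largest log2 changes were those of RpL41 and RpS14b, both 2.62 (SE 0.19 and 0.23), RpS15Ab at 2.56 (SE 0.25), and RpL30 and RpS5a, both 2.48 (SE 0.22 and 0.21). RpS28b, RpL37A, RpL36 and RpS21 followed, at 2.45 to 2.47. At the other end, next to RpS5b, stood RpLP0 at 1.48 (SE 0.20), RpL13A and RpL34a, both 1.77 (SE 0.20 and 0.22), RpL36A at 1.84 (SE 0.20), RpL4 at 1.86 (SE 0.20), RpL40 at 1.90 (SE 0.20) and RpS27A at 1.91 (SE 0.19). Of 69 other genes as abundant at 0–1 h, 28 were called higher, and their median log2 change was -0.03. sta rose by 2.10 (SE 0.20) and Rack1 by 1.92 (SE 0.20), values inside the range of the RpL and RpS genes.

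**Figure D1:**
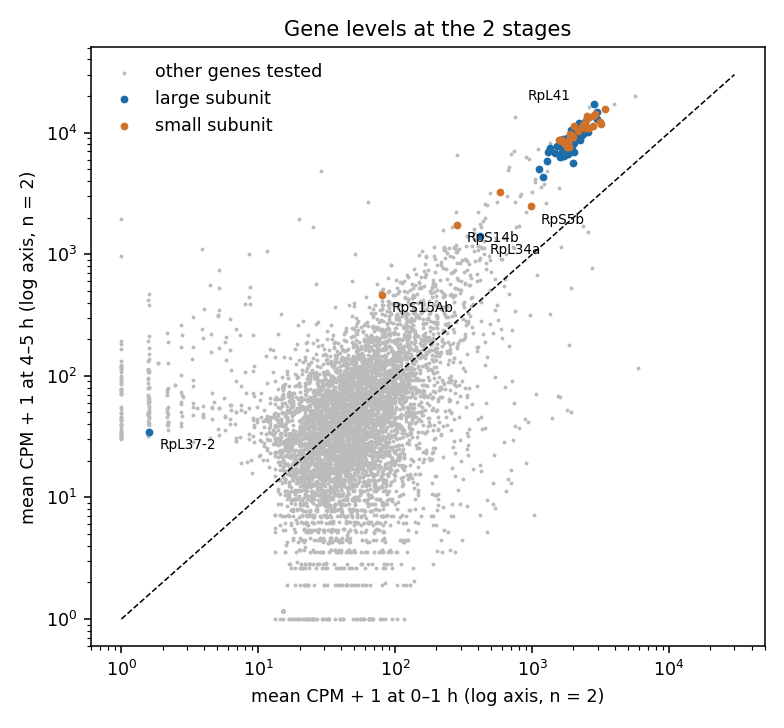
Mean CPM plus 1 at 0–1 h (horizontal, log axis) and 4–5 h (vertical, log axis), n = 2 libraries each, for the 83 tested ribosomal protein genes coloured by subunit and the 5959 other tested genes in grey; the dashed line marks equal levels. All 83 ribosomal protein genes lie above the line, most of them in a tight cluster at the top right, while the low paralogues RpL37-2, RpS15Ab and RpS14b lie apart.

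The 73 tested mitochondrial ribosomal protein genes, whose products work in a separate ribosome of bacterial type, had a lower median log2 change, 0.42. Of these, 24 were called higher, 6 lower and 43 neither. Over all genes tested 28.6% were called higher, close to the part called higher here, and 31.5% lower. Of 22 ribosome biogenesis genes, which process rRNA and assemble subunits in the nucleolus, 15 rose, 1 fell and 6 did not pass the test, with a median of 1.20. nclb rose by 2.36 (SE 0.33), Non1 by 2.19 (SE 0.23) and Fib, the fibrillarin of the snoRNPs that methylate rRNA, by 1.97 (SE 0.23). Nop60B, the pseudouridine synthase of the other class of snoRNPs, fell by 0.54 (SE 0.22). RpL24-like, RpL7-like and RpLP0-like rose by 1.95 (SE 0.22), 1.80 (SE 0.24) and 1.42 (SE 0.27). None of the 4 tested genes of the RNA polymerase I system, which transcribes rRNA, was called, and their log2 changes ran from -0.22 (TAF1B) to 0.27 (Polr1H). edgeR's test gave no unadjusted p under 0.05 among them.

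The regulators moved in both directions. Of 11 tested, 5 rose and 4 fell, beside 28.6% called higher and 31.5% lower over all genes tested. Thor, the eIF4E-binding repressor of translation, had 11.4 and 14.5 CPM in the 0–1 h libraries and 292 and 148 CPM in the 4–5 h libraries and rose by 4.11 (SE 0.34) on the log2 scale. The promoter-binding factors M1BP, Trf2 and Dref, each of them known to act at ribosomal protein genes, rose by 1.84 (SE 0.30), 1.49 (SE 0.32) and 1.45 (SE 0.35). S6k, the kinase of RpS6, changed by 0.66 (SE 0.29), with an adjusted p of 0.0454. Mnt, a repressor that shares a partner with Myc, fell by 4.44 (SE 0.65), raptor by 1.71 (SE 0.57), Myc itself by 1.18 (SE 0.31) and larp by 0.76 (SE 0.29). mTor and Irbp18 did not pass the test. Of the pair of nascent chain factors, bic rose by 1.07 (SE 0.21) and its partner Nacalpha fell by 0.67 (SE 0.21).

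Levels were also put as RPKM, a gene's reads divided by its annotated transcript length and by the library's reads, without TMM scaling. The order of genes on this scale depends on the division by length. At 0–1 h the tested genes had a median of 4275, with a 10th percentile of 2072 and a 90th of 7433. At 4–5 h the median was 8883, with percentiles of 3424 and 15117. The order of genes was nearly the same at both stages (Spearman's rho 0.966 over 83 genes, which share the libraries and the annotated lengths). RpL41, whose product is the smallest protein of the ribosome, led at both stages with 13599 and 12908 in the 0–1 h libraries and 33444 and 38523 in the 4–5 h libraries, replicate 1 first, the order used from here on. RpL39, a short protein at the exit tunnel, was second with 9736, 12856, 23834 and 26628. The values of RpL41 and RpL39 did not overlap at either stage, although at 0–1 h the lower value of RpL41 was close to the higher value of RpL39. RpL29 and RpS23, a protein of the decoding centre, came next at both stages, with means of 8978 and 8773 at 0–1 h and 18636 and 17453 at 4–5 h. By share of reads, not divided by length and with paralogues summed, the order differed. RpL41 ranked 7 at 0–1 h and 1 at 4–5 h, RpL39 30 and 18, RpL29 50 and 45, and RpS23 1 and 2.

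One copy of each protein per ribosome raises the question of how even the mRNA pool is. Each protein's share of the ribosomal protein reads, with paralogues summed, had a median of 1.24%, 1.23%, 1.24% and 1.26% in the same order of libraries. The 90th percentile was 1.92, 1.67, 1.85 and 1.95 times the 10th, and the coefficient of variation was 26.0%, 20.8%, 24.0% and 28.4%. The 2 stages overlapped in both measures. RpS23 had the largest share in both 0–1 h libraries, 2.29% and 1.95%, and RpL41 in both 4–5 h libraries, 2.16% and 2.51%. The smallest share fell to RpL35A in 0–1 h replicate 1, at 0.653%, and to RpL36A in the other 3 libraries, at 0.693%, 0.612% and 0.531%. Per kilobase the pool was less even, with a coefficient of variation of 44.5%, 41.1%, 46.8% and 54.8%. On this scale that measure was higher in both 4–5 h libraries than in both 0–1 h libraries. The ratio of the percentiles per kilobase, 2.75, 2.62, 2.65 and 3.12, overlapped between the stages.

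The balance of the subunits differed little between stages. Large subunit genes took 57.1% and 57.8% of the ribosomal protein reads at 0–1 h and 56.7% and 57.0% at 4–5 h. The means were 57.4% ± 0.546 (SD, n = 2) and 56.9% ± 0.188 (SD, n = 2), a difference of -0.579 percentage points. Both 4–5 h libraries lay below both 0–1 h libraries, but the gap between the nearest pair was smaller than the spread at 0–1 h. An exact two-sided permutation test of 2 against 2 libraries cannot go below p = 0.333. Per kilobase the difference was -0.0323 points and on the authors' TPM 0.759 points, so its direction depended on the scale.

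The second test asked which genes departed from the common rise. Each gene's reads were tested against the sum of all ribosomal protein reads in that library. In this comparison 4.12% of all 6042 genes were called higher and 83.8% lower, since most other mRNAs lost ground to the ribosomal protein pool. Of the 83 tested genes, 6 were called higher and 9 lower. The 6 include RpL37-2, with a log2 change of 3.45. It had 1 read at 0–1 h and reached the test only through its 29 reads at 4–5 h. The adjusted p-values sit close to the raw ones because so many genes of the fit were called (for RpL34a, 0.0285 against 0.0247), and at an unadjusted p under 0.05 edgeR's test gave 8 higher and 10 lower. With ribosomal protein genes alone in the fit, 0 were called higher and 2 lower (8 and 12 at an unadjusted p under 0.05). DESeq2 called 1 higher and 5 lower, and the fit with the replicate number as a block 2 and 6. Shares of the 2 stages did not overlap in 53 genes, 28 with the higher share at 4–5 h and 25 with the lower, and overlapped in the other 30. By permutation, 2 against 2 libraries separate with a probability of 0.333 even without a change. The same count was not taken over all genes, so the 53 are a description only. In 64 of 83 genes the change lay within 0.25 of 0 on the log2 scale.

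RpLP0 and RpS5b were called lower in the pool in each of the 12 alternatives tried. RpLP0 encodes the base of the ribosomal stalk, on which the acidic proteins P1 and P2 are mounted and which recruits translation factors (chromosome arm 3L, positions 22075867 to 22077487, plus strand, BDGP6.54). It held 1.35% and 1.14% of the ribosomal protein reads at 0–1 h and 0.755% and 0.739% at 4–5 h. The stages did not overlap, and the share changed by -0.74 on the log2 scale (SE 0.13, adjusted p 1.07e-05 in edgeR's quasi-likelihood test, 0.00102 at most under the 12 alternatives for this test). In CPM it still rose, from 2021 and 1981 to 6003 and 5146.

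The acidic partners of RpLP0 were not called in the pool, and their changes had the other sign. RpLP1 had shares of 1.12%, 1.39%, 1.43% and 1.48% and a change of 0.22 (SE 0.12, adjusted p 0.0960). RpLP2 had shares of 0.732%, 1.26%, 1.32% and 0.940% and a change of 0.18 (SE 0.40), also not called, and its libraries of the 2 stages overlapped. The SE of its stage change, 0.47, was the widest of the tested genes after that of RpL37-2. Its part of the RpLP1 and RpLP2 reads was 39.6% and 47.5% at 0–1 h and 47.9% and 38.8% at 4–5 h, so that 0–1 h replicate 1 lay beside 4–5 h replicate 2.

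**Figure D2:**
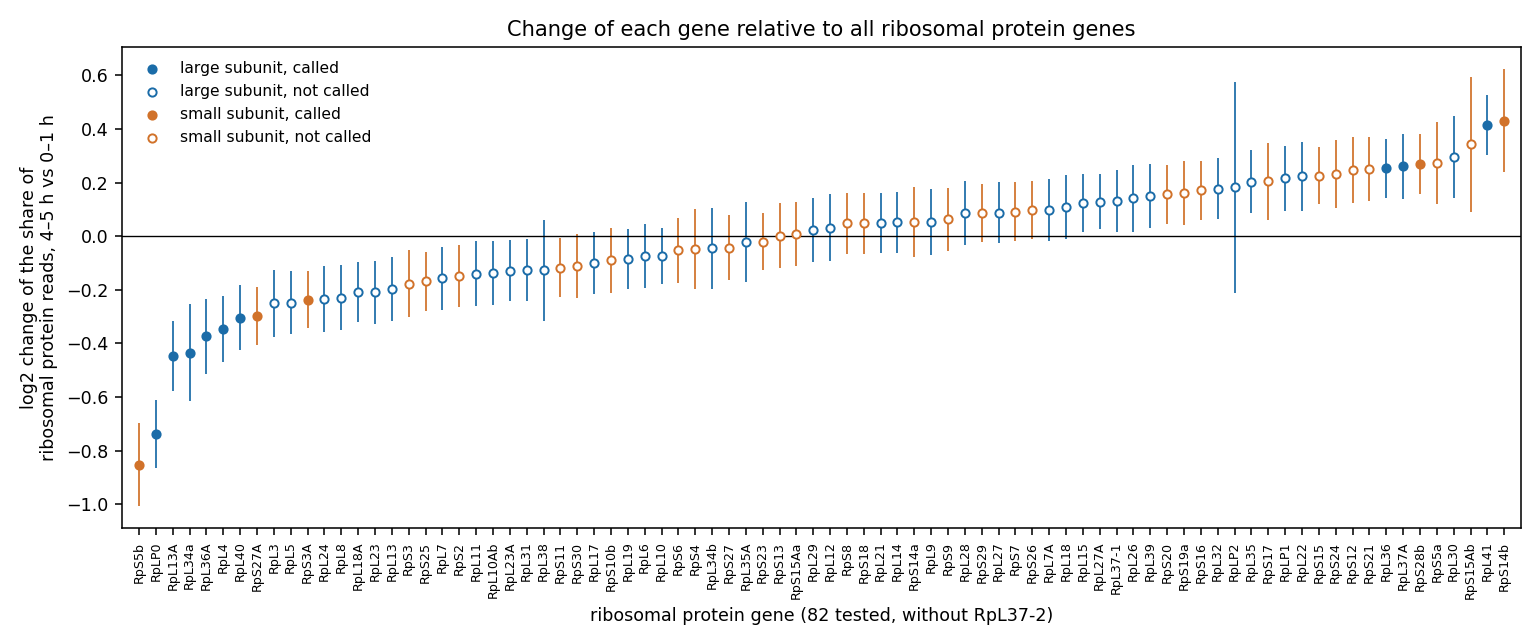
Log2 change of each gene's share of the ribosomal protein reads from 0–1 h to 4–5 h (vertical) for 82 tested genes in order of the change (horizontal), without RpL37-2; points are the fitted value, bars 1 SE, n = 2 libraries per stage, filled points passed the adjusted p threshold of 0.05. Most genes lie near 0; RpS5b at -0.85 and RpLP0 at -0.74 stand at the low end, and RpL41 at 0.42 and RpS14b at 0.43 at the high end.

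The other 7 genes called lower in the pool were less stable. RpL13A, a protein of the 60S surface, held 1.25% and 1.24% at 0–1 h and 1.02% and 0.802% at 4–5 h, a change of -0.45 (SE 0.13). RpL36A, which had the smallest share in most libraries once paralogues were summed, had 0.788%, 0.693%, 0.612% and 0.531%. RpL4, which lines the exit tunnel and is one of the longest ribosomal proteins, had 1.19%, 1.08%, 0.907% and 0.880%. Neither overlapped between stages. RpL36A fell by 0.37 (SE 0.14), RpL4 by 0.35 (SE 0.12) and RpS3A, the one tested gene on chromosome 4, by 0.24 (SE 0.11). RpL40 and RpS27A, which are made as fusions with ubiquitin and therefore also supply free ubiquitin, fell together by 0.30 (SE 0.12 and 0.11). RpL40 had shares of 1.05%, 1.08%, 0.849% and 0.872%, and RpS27A 2.07%, 1.85%, 1.51% and 1.68%, with no overlap between stages in either. RpS30, whose product is fused to a protein like ubiquitin, held 1.14%, 1.08%, 1.03% and 1.02% and did not pass the test, at -0.11 (SE 0.12).

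Among the genes that gained within the pool, RpL41 was the most stable. Its share was 1.90% and 1.60% at 0–1 h and 2.16% and 2.51% at 4–5 h, a log2 change of 0.42 (SE 0.11, adjusted p 0.00145), and it was called in 11 of the 12 alternatives. RpS28b, RpL37A and RpL36 gained 0.27 (SE 0.11), 0.26 (SE 0.12) and 0.25 (SE 0.11). All 3 code for short basic proteins. The shares of RpS28b were 1.28% and 1.24% at 0–1 h and 1.47% and 1.56% at 4–5 h, and those of RpL36 were 1.40% and 1.33% at 0–1 h and 1.58% and 1.68% at 4–5 h, without overlap. RpS15 and RpS21 had changes of 0.23 (SE 0.11) and 0.25 (SE 0.12) and stood just outside the threshold, each with an adjusted p of 0.0521. RpS12, known for its part in cell competition, had shares of 0.956%, 1.00%, 1.09% and 1.23% and a change of 0.25 (SE 0.12), which was not called. RpS6, the phosphorylation target of S6k, had 1.05%, 1.16%, 1.12% and 1.01%, with overlapping stages and a change of -0.05 (SE 0.12).

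RpL38 and RpL30 showed how far single libraries could part. RpL38, a Minute gene of the large subunit, had shares of 1.08%, 1.66%, 1.16% and 1.36%, and its stages overlapped. RpL30 had 0.660% in 0–1 h replicate 1 and 0.982%, 1.01% and 1.00% in the others, a change of 0.29 (SE 0.15) that was not called.

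Leaving out 1 library at a time moved this set of calls. Without 0–1 h replicate 1, 8 of the 15 calls remained, without 0–1 h replicate 2 and without 4–5 h replicate 1, 9 each, and without 4–5 h replicate 2, 5. RpLP0, RpS5b and RpL41 were the 3 called each time. RpL34a and RpS3A were lost each time, and RpS3A was called in 3 of the 12 alternatives.

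Change within the pool went with mRNA length. Among the 78 genes with over 0.5% of the pool at 0–1 h, Spearman's rho of the log2 change with the read-weighted annotated length was -0.461 and Pearson's r -0.476; the genes share the same 4 libraries. The 26 genes under 600 nt had a median change of 0.11, with 18 above 0. The 15 genes of 900 nt or more had a median of -0.16, with 2 above 0. Length also went with the stage change in the 5959 other genes, where Spearman's rho was -0.196 and the median log2 change was 1.13 for 245 genes under 600 nt and -0.25 for 5194 of at least 900 nt. The lowest changes were those of RpLP0, at -0.74, and RpS5b, at -0.85. RpS5b is longer than the median of 644 nt but under 900 nt. The part of mRNA length in the pool calls was not tested.

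**Figure D3:**
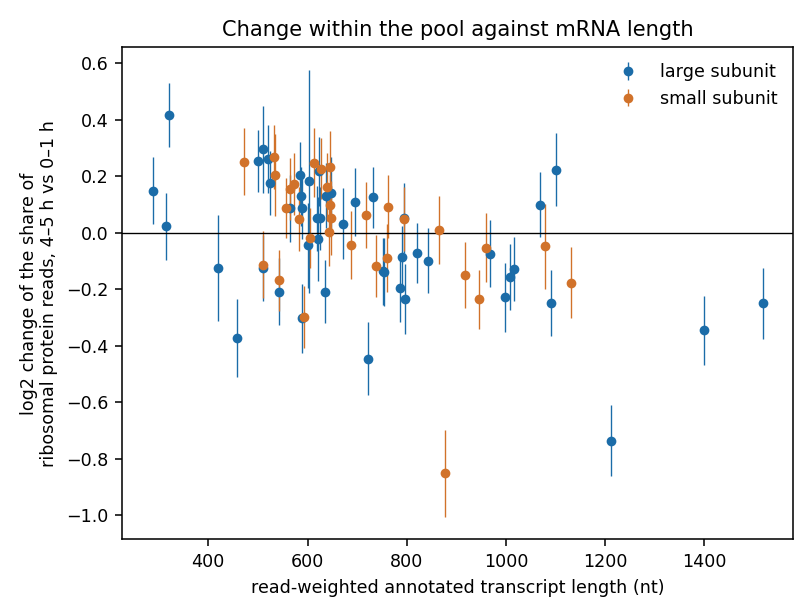
Log2 change of each gene's share of the ribosomal protein reads from 0–1 h to 4–5 h (vertical, bars 1 SE, n = 2 libraries per stage) against the read-weighted annotated transcript length in nt (horizontal) for the 78 genes with over 0.5% of the pool at 0–1 h, coloured by subunit. Short genes lie more often above 0 and long genes below it, with RpS5b at -0.85 and RpLP0 at -0.74 lowest.

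Paralogue pairs showed where 2 genes for 1 protein moved apart. The paralogues of a pair can be near-identical in sequence, so the split of their reads by Salmon is uncertain. RpS5b is the copy known from the female germ line, and RpS5a the copy used broadly. RpS5a (X, positions 17143588 to 17148264, minus strand, BDGP6.54) had 531, 631, 3435 and 3032 CPM, and RpS5b (3R, positions 14900432 to 14901563, minus strand) had 828, 1126, 2859 and 2121. RpS5b was thus the higher copy in both 0–1 h libraries and the lower in both 4–5 h libraries. Its part of the pair's reads was 60.9% (95% Wilson interval 58.1 to 63.6) and 64.1% (61.6 to 66.5) at 0–1 h, and 45.4% (43.8 to 47.1) and 41.2% (38.7 to 43.6) at 4–5 h. The intervals of the stages do not meet; they cover counting error only. Within the ribosomal protein pool RpS5b changed by -0.85 (SE 0.15, adjusted p 2.00e-05) and RpS5a by 0.27 (SE 0.15, adjusted p 0.0939). It was the one paralogue that led its pair at 0–1 h in both libraries and not at 4–5 h. The 6 tested germ line mRNAs changed between the stages by -5.78 (osk), -5.40 (nanos), -4.35 (pgc), -2.60 (gcl), -1.35 (tud) and -0.89 (aub, not called) on the log2 scale. All but pgc had enough reads to be tested only through the 0–1 h libraries. The change of RpS5b between the stages was 1.35.

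**Figure D4:**
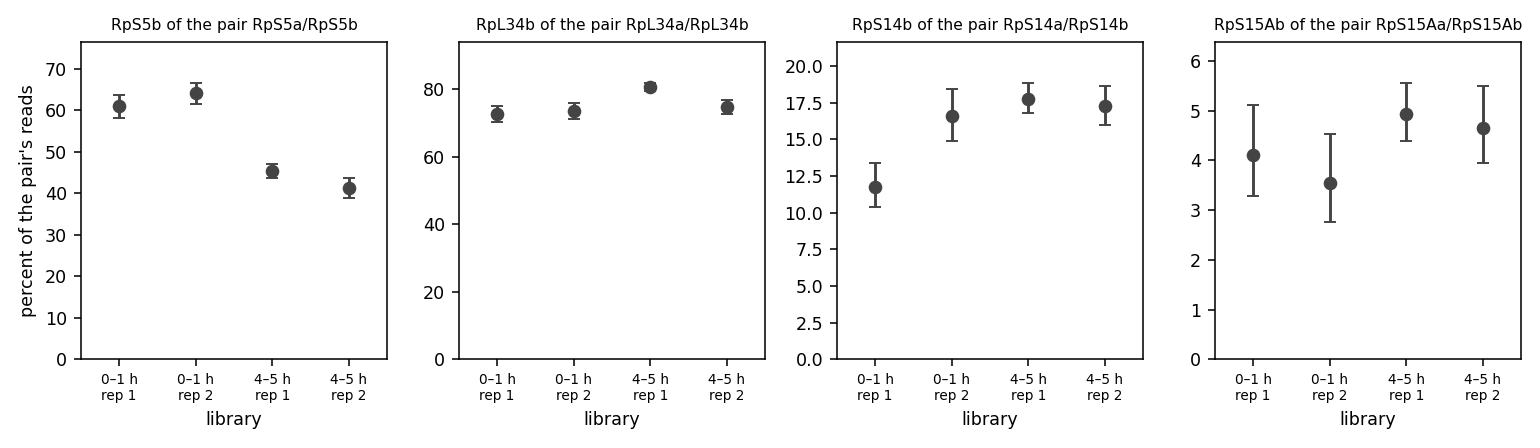
Percent of a pair's reads that were assigned to the named paralogue (vertical, starting at 0) in each of the 4 libraries (horizontal) for RpS5b, RpL34b, RpS14b and RpS15Ab; bars are 95% Wilson intervals for counting error. RpS5b falls from over 60% at 0–1 h to under 46% at 4–5 h, whereas in the other 3 pairs the same copy leads at both stages.

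In the other pairs the same copy led at both stages. RpL34b took 72.7%, 73.5%, 80.6% and 74.7% of the RpL34 reads, and the rise in 4–5 h replicate 1 was not matched in replicate 2. RpL34a was called lower in the pool, at -0.43 (SE 0.18), and RpL34b was not, at -0.05 (SE 0.15). RpS14a and RpS14b lie side by side on the X chromosome, at 7933742 to 7934677 and 7934898 to 7935792 on the plus strand. RpS14b took 11.8% and 16.6% of the pair's reads at 0–1 h and 17.8% and 17.2% at 4–5 h, so that 0–1 h replicate 1 stood apart from the other 3 libraries. In the pool RpS14b gained 0.43 (SE 0.19, adjusted p 0.0402), a call lost without 0–1 h replicate 1 or without 4–5 h replicate 2. RpS15Ab took 4.10%, 3.54%, 4.94% and 4.65% of the RpS15A reads, with a pool change of 0.34 (SE 0.25) that was not called.

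The remaining paralogues were close to silent. RpL37-2 had 0, 1, 19 and 10 reads beside 1637, 1719, 5939 and 2771 of RpL37-1. Its rate at 4–5 h was 58.0 times that at 0–1 h, with a 95% counting interval of 9.62 to 2369. RpS10a had 3, 0, 11 and 5 reads, a ratio of 10.7 (95% counting interval 3.05 to 57.1), beside 1468 to 4901 of RpS10b. RpS19b had 0, 0, 6 and 3 reads, RpS28a 0, 0, 1 and 2, and RpL22-like, known from the testis, 0, 0, 0 and 1. RpL10Aa and RpS28-like had 0 in every library. A count of 0 allows up to 3.41, 3.62, 5.45 and 9.90 CPM in the 4 libraries. RpS10a, RpL22-like, RpL10Aa, RpS19b, RpS28a and RpS28-like are the 6 genes not tested.

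Genes were also grouped by snoRNA content and by chromosome. The 28 tested genes that hold snoRNA genes within their bounds, 74 snoRNA genes in all, had a median log2 change of 2.26 and the 55 others 2.23. By chromosome the medians ran from 2.15 for the 18 genes on 3R to 2.35 for the 14 on X, beside the single gene on chromosome 4 at 1.97. Apart from chromosome 4, these medians lie within the 25th and 75th percentiles of the set.

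Of the 83 genes, 66 have more than 1 listed transcript. Among these 66, the leading transcript held over 90% of the gene's reads at both stages in 35, and by mean share a different transcript led at the later stage in 3, RpS7, RpL7 and RpL7A, none of them called for isoform usage. The other 17 genes have 1 listed transcript each. In the test of isoform usage 14.2% of 823 genes were called, and 1 of the 52 ribosomal protein genes in that test. This was RpS27 (3R), whose RA form, of 729 nt, and RB form, of 687 nt, have the same 3′ end and differ at the 5′ end. RA took 5.54% and 4.97% of the reads at 0–1 h and 0.871% and 0.880% at 4–5 h, without overlap (adjusted p 0.0230). The call was lost in each fit that left out 1 library, with the replicate block (adjusted p 0.425 in edgeR's test) and with Simes' method in place of the F test. This loss was not particular to RpS27. Calls over all 823 genes fell from 117 to 0 with the block and with Simes' method, and nearly all were lost in the fits without 1 library. With the block, RpS27 stayed at an unadjusted p under 0.05 in edgeR's test. RpS30-RB had 64.2% and 69.1% at 0–1 h and 73.3% and 88.0% at 4–5 h and was not called.

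Larger isoform differences ran between replicates. Annotated 3′ ends lie over 10 nt apart in 40 of the genes, a set chosen after the values had been seen. The form with the most distal 3′ end took a median of 13.0% of a gene's reads in 0–1 h replicate 1 and 4.07% in replicate 2, and 4.66% in 4–5 h replicate 1 and 21.5% in replicate 2. In 34 of the 40 genes replicate 1 was higher at 0–1 h and replicate 2 at 4–5 h. The RpL7 form with the distal end took 58.6%, 10.98%, 16.01% and 100% of the reads, that of RpS7 42.2%, 10.5%, 20.0% and 98.2%, and that of RpL21 18.4%, 1.48%, 11.3% and 56.1%. In each of these 3 genes, 0–1 h replicate 1 and 4–5 h replicate 2 had the highest values, so the stages overlapped. Of 471 other genes with such ends, 196 had the same order of libraries and 32 the opposite order. Replicates with the same number deviated in opposite directions also at the gene level, with a correlation of -0.242 over the 83 genes and -0.147 over all 6042. No label gives a batch, and the cause was not tested.

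**Figure D5:**
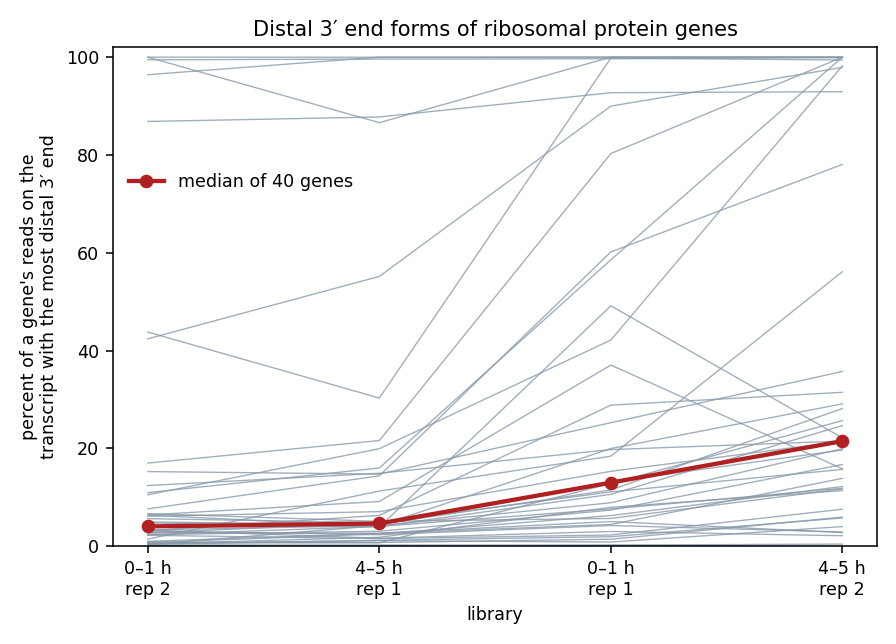
Percent of a gene's reads on the annotated transcript with the most distal 3′ end (vertical) in the 4 libraries (horizontal, ordered by the median, not by stage); grey lines join the values of 1 gene, for 40 ribosomal protein genes with 3′ ends over 10 nt apart, and the red line is their median. The median is 4.07% and 4.66% in 0–1 h replicate 2 and 4–5 h replicate 1, and 13.0% and 21.5% in 0–1 h replicate 1 and 4–5 h replicate 2.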

How the data were processed

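Native RNA from 4 libraries was read by nanopore direct RNA sequencing. Per the submitters' processing notes the tools were minimap2 and Salmon and the build BDGP6. The sources used here give no versions or settings. The deposited expected counts per transcript, made by the authors and not normalised, were matched by identifier to Ensembl release 115 (BDGP6.54; 30280 of 30652 transcripts, including all 226 of the ribosomal protein genes, each with equal length), summed per gene and rounded. Reads without an annotated gene were 0.263% to 0.545%. The TPM deposited by the authors were made with an effective length, in 99.0% of transcripts the annotated length less 250 nt, and served as an alternative.

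Tests used the package edgeR 4.0.16 under R 4.3.3 (filterByExpr, minimum count 10; robust quasi-likelihood F test; stage as the term; Benjamini-Hochberg over all genes, threshold 0.05) on TMM-scaled libraries and again with library size set to the ribosomal protein reads. Isoform usage was tested with diffSpliceDGE. limma 3.58.1 and DESeq2 1.42.0 were alternatives. On simulated counts over 5818 genes the stage test called 43.0% of genes changed by 1 and 100% of those changed by 2 on the log2 scale. The members and lists were chosen with earlier results of these data known. Named genes are the paralogues, stalk and ubiquitin-fusion genes, RpL41, RpS6, RpS12, and the 10 largest and 8 smallest stage changes. Also named are the 5 genes per stage highest by RPKM, the 8 smallest p of each pool direction and of isoform usage, and those not tested. RpS7 and RpL7A were named after their values were seen, as were RpL35A and RpS3A.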

Additional observations from a re-analysis of the deposited data

How the results depend on the processing

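The count of genes higher at 4–5 h changed by over 1.5 times with limma on log2(TPM + 1), where it was 37 of 83; there 9 named genes changed sign, with RpLP0 at -0.48, RpL40 at -0.0547, RpS27A at -0.0421, RpL7 at -0.0260, RpS5b at -0.60, RpL34a at -0.18, RpL13A at -0.20, RpL36A at -0.12 and RpL4 at -0.0904. It stayed at 82 to 83 in the 4 fits that left out 1 library. Within the pool, DESeq2 gave 1 higher and 5 lower, and ribosomal protein genes alone in the fit 0 and 2 (8 and 12 at an unadjusted p under 0.05). Leaving out 1 library gave 4 to 8 higher and 3 to 7 lower, with the lowest without 4–5 h replicate 2. The isoform call fell to 0 with Simes' p, with 3′ ends within 50 nt summed, with the replicate block and in the 4 fits without 1 library. Over all genes, calls were 0 of 823 with Simes' p and with the block, and 146 of 458 with the ends summed.

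The replicate numbers did not pair the libraries. With the replicate block the pool calls were 2 higher and 6 lower and the stage calls 83. A block with crossed numbers, added after seeing the data, gave 12 and 14 in the pool and 0 for isoforms. The difference in large subunit share was -0.0323 points per kilobase and 0.759 on TPM, -0.852 without RpL41, and -0.965 to -0.193 without 1 library. Genes at a few reads, such as RpL37-2, are limited by depth. Settings named "members only" and "crossed" were chosen after seeing the data.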
